A study of Rattus norvegicus with 2 samples.

Results

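The miR-183 cluster comprises rno-miR-183, rno-miR-96 and rno-miR-182, which were taken by name from the 350 rat microRNAs (miRNAs) on an Agilent array, leaving out names with a star. All 3 members were found, with 2 probes for miR-183, 2 for miR-96 and 3 for miR-182. The study set tongue squamous cell carcinoma of the rat against normal tongue, and 2 arrays were analysed here. The tumour-labelled array came from male Sprague-Dawley rats, 6 to 7 weeks old when assigned to the experiment, that received the carcinogen 4NQO at 0.02 g/l. The normal-labelled array came from rats of the same strain, sex and age on distilled water. Each arm had 20 rats. Tongues were collected after 36 weeks, and the extraction covered 7 tumours and 7 normal tissues. The labels do not say how many animals' RNA each array held, and every direction below rests on the labels of the 2 arrays. A group of 1 array allows neither a replicate check nor a test between groups. Each error below therefore comes only from the spread of spots within an array, combined over both arrays for a ratio.

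A miRNA pairs with messenger RNAs mainly through its seed, bases 2 to 8 from its 5′ end, and lowers their translation and stability. The miR-183 cluster is a group of miRNAs cut from 1 primary transcript. It is best known from sensory epithelia such as the retina and inner ear, where it is abundant in hair cells and photoreceptors. It is also made in other epithelia, and raised levels are often reported in human carcinomas. FOXO1 messenger RNA is a known target of miR-96 and miR-182.

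The mature sequences are shown first, because the seeds set what each member can bind. Capitals mark the seed. Sequences and positions are RefSeq's, in rat build GRCr8, and all 3 genes lie on the minus strand: miR-183 at chr4:59756106-59756127, miR-96 at chr4:59755901-59755923 and miR-182 at chr4:59752249-59752273.
rno-miR-183: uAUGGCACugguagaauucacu
rno-miR-96: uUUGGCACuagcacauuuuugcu
rno-miR-182: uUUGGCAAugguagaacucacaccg
The seeds of miR-96 and miR-182 were identical at 6 of 7 bases, as were those of miR-183 and miR-96, while those of miR-183 and miR-182 were identical at 5 of 7. Outside the seed the likeness ran the other way: aligned from the 5′ end without gaps, miR-183 and miR-182 shared 13 of the 15 bases there, against 7 of 15 for miR-183 and miR-96 and 6 of 16 for miR-96 and miR-182. None of the 3 seeds was found whole in another miRNA among 693 mature names of RefSeq.

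The hairpins show where in each precursor the measured strand lies. Capitals mark the mature miRNA, which is on the 5′ arm in miR-183 and miR-96 and is followed by only the last 3 bases of the RefSeq entry in miR-182.
Mir183: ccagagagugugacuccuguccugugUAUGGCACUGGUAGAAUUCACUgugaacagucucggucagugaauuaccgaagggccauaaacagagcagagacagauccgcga
Mir96: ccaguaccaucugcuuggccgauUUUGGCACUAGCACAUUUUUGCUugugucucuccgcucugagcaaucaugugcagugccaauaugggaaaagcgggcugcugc
Mir182: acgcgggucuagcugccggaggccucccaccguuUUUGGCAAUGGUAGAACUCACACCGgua
Read along the transcript, Mir183 comes first, Mir96 follows after 97 bases and Mir182 after a further 3533. The opposite arms of these hairpins were not measured, as no probe carried one of the 3 names with a star.

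The probes are shown because the detection of miR-183 and miR-182 differed between probes of 1 miRNA. Each is the exact reverse complement of its miRNA and starts at that miRNA's 3′ end; a longer probe adds 1 base, marked as a capital, towards the 5′ end.
miR-183, 18 bases: agtgaattctaccagtgc
miR-183, 19 bases: agtgaattctaccagtgcC
miR-96, 20 bases: agcaaaaatgtgctagtgcc
miR-96, 21 bases: agcaaaaatgtgctagtgccA
miR-182, 14 bases: cggtgtgagttcta
miR-182, 15 bases: cggtgtgagttctaC
miR-182, 16 bases: cggtgtgagttctacC
The longest probe left bases 1 to 3 of miR-183 unpaired, bases 1 to 2 of miR-96 and bases 1 to 9 of miR-182, so that no probe for miR-182 reached its seed. Aligned without gaps and with the whole probe inside the miRNA, both miR-183 probes met miR-182 with 3 mismatches, the closest match in RefSeq apart from miR-183 itself. Set against miR-183 base for base from the 5′ ends, the 16-base probe of miR-182 covered 13 bases with 2 mismatches, and its remaining bases ran past the end of miR-183. For the miR-96 probes the closest other miRNA had 7 mismatches. Whether miR-182 and miR-183 add to the signal of each other's probes was not tested.

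All 3 members were dim. Signals are given in the software's linear, background-subtracted intensity units, before any scaling between arrays. A probe was counted as detected where more than 50% of its spots, leaving out those marked as outliers, were well above background, and a miRNA where any of its probes was. The dimmest detected probe had a mean of 18.3 on the tumour-labelled array and 18.2 on the normal-labelled array, and the negative control spots, 672 per array, had means of 1.21 ± 7.28 and 2.64 ± 6.31 (SD over spots). With marked outliers kept, 6 and 17 of these control spots were well above background, and the brightest reached 139.7 and 73.4. On either array 0 spots of the members were brighter than that. By this rule 2 of the 3 members were detected on the tumour-labelled array, where 29.7% of all 350 miRNAs were, and all 3 on the normal-labelled array, where 25.1% were. The software's own call marked all 3 as detected on both arrays. That call marked 126 of the 350 miRNAs on the tumour-labelled array and 110 on the normal-labelled array.

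miR-183, the first of the 3 in the transcript, was detected by its 19-base probe alone. On the tumour-labelled array the 10 spots of that probe ran from 19.4 to 35.5 with a median of 25.2, and on the normal-labelled array from 24.2 to 31.3 with a median of 28.3. All 10 spots were well above background on each array, the range on the normal-labelled array lay inside that on the tumour-labelled array, and the means were 26.5 ± 5.06 and 28.3 ± 2.06 (SD over 10 spots). The 18-base probe had means of 5.32 (10 spots) and 6.02 (8 spots, 2 marked as outliers left out), with 0 spots well above background on either array.

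miR-96 was detected by both of its probes on both arrays and is the best measured of the 3. Its 21-base probe ran from 27.3 to 35.5 with a median of 29.2 over 9 spots on the tumour-labelled array, and from 34.0 to 42.7 with a median of 38.0 over 10 spots on the normal-labelled array. These ranges overlapped only at their ends, and the means were 31.2 ± 3.16 and 38.1 ± 2.71. Its 20-base probe had a median of 27.0 (17.97 to 31.4) on the tumour-labelled array and of 30.7 (21.8 to 38.4) on the normal-labelled array. Both probes were lower on the tumour-labelled array before scaling, by 1.20-fold for the 20-base probe and 1.22-fold for the 21-base probe.

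miR-182, the last of the 3 in the transcript, rested on its 16-base probe. Its 6 spots ran from 12.3 to 25.3 with a median of 16.3 on the tumour-labelled array and from 16.7 to 23.2 with a median of 18.1 on the normal-labelled array. Of these, 2 spots were well above background on the tumour-labelled array and 4 on the normal-labelled array, so the call of detection turned on 2 spots of 6. The means of 17.1 ± 5.15 and 19.0 ± 2.46 lay on either side of the dimmest detected probe, and the ranges overlapped. The 14-base and 15-base probes, 7 spots each, had means of -2.51 and -2.69 on the tumour-labelled array and of 2.77 and -1.34 on the normal-labelled array, with 0 spots well above background. miR-182 was 1 of 3 miRNAs detected on the normal-labelled array alone, which is 0.857% of the 350; the other 2, named after their values were seen, were miR-188 and miR-193.

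**Figure D1:**
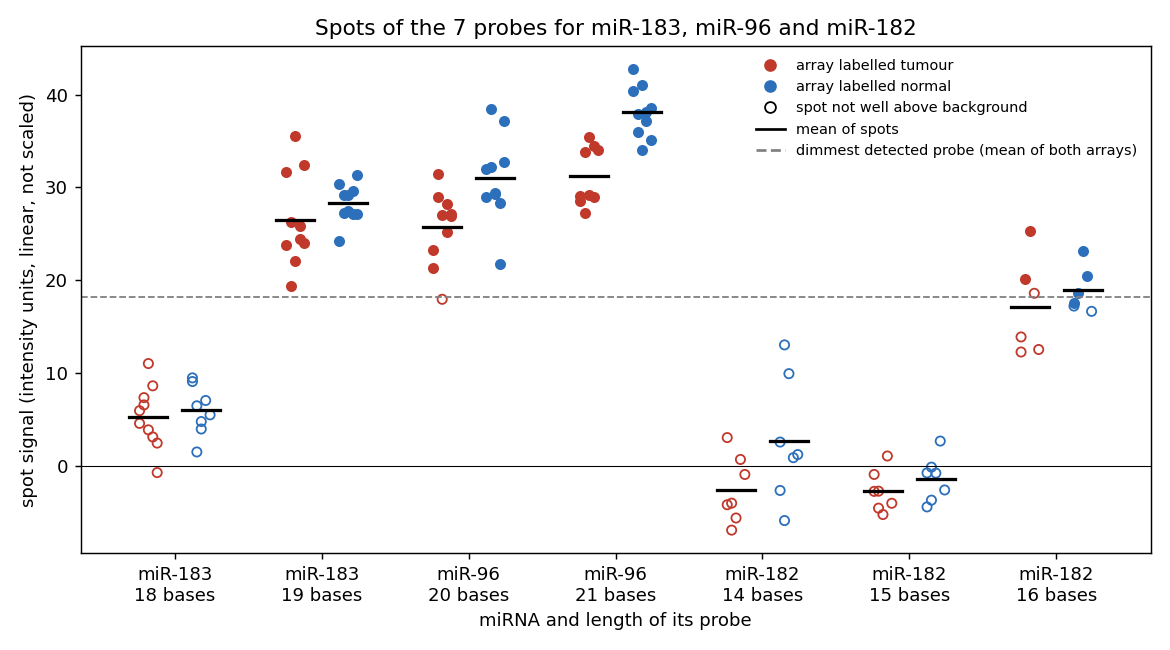
Signal of each spot (vertical axis, linear intensity units, not scaled) for the 7 probes of miR-183, miR-96 and miR-182 (horizontal axis), in red for the tumour-labelled array and blue for the normal-labelled array; filled points are well above background, open ones are not, bars are means over spots, marked outlier spots are left out, and the dashed line is the mean of the dimmest detected probe of each array. The 19-base probe of miR-183 and both probes of miR-96 lie mostly above the line on both arrays, the 16-base probe of miR-182 straddles it, and the other 3 probes lie below it.

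The comparison between arrays asks whether the cluster differed between carcinoma and normal tongue. Before scaling, the log2 ratio, labelled tumour over labelled normal, was -0.092 for miR-183 (spot SE 0.093) and -0.28 for miR-96 (spot SE 0.057). miR-182 has no such ratio, since it did not pass detection on the tumour-labelled array. The difference for miR-183 was no larger than 1 spot SE, and that for miR-96 was several times its spot SE. A spot SE leaves out all differences between animals, labellings and arrays. Without scaling, 0 of the 2 members with a ratio were at least 2-fold lower, against 5.88% of the 85 miRNAs that had one.

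After scaling, both members with a ratio passed 2-fold on the lower side in the tumour-labelled array, miR-183 only just. The scale was the 75th percentile of an array over the 140 probes that passed detection on both, which was 1.89-fold higher on the tumour-labelled array and so lowered each log2 ratio by 0.92. In units of that percentile, miR-183 was at 0.0505 on the tumour-labelled array and 0.102 on the normal-labelled array and was 2.02-fold lower (log2 ratio -1.01). In the same units miR-96 was at 0.0539 and 0.124 and was 2.30-fold lower (log2 ratio -1.20). Of all 85 ratios, 22.4% were at least 2-fold lower, a rule of size and not a test. For miR-182 a lower bound, 1.97-fold higher on the normal-labelled array, was set against the dimmest detected probe of the tumour-labelled array. Before scaling that bound was 1.04-fold. In units of the percentile, the dimmest detected probe was at 0.0657 on the normal-labelled array and 0.0347 on the tumour-labelled array. A probe detected on the normal-labelled array alone, and no brighter than 0.0347 on the other, thus gets a bound near 1.89-fold or above. The bound of miR-182 was largely fixed in this way and is not a measured minimum. Of the scaled log2 ratios, 0.92 was the scaling factor in each case. In bulk tissue, fewer cells of a type and less RNA per cell cannot be told apart.

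The software's total gene signal sums all probes of a miRNA, detected or not, and is what the deposited value table holds. For miR-183 it was 21.2 on the tumour-labelled array and 22.8 on the normal-labelled array, a 1.08-fold difference, and for miR-96 it was 37.8 and 45.9, a 1.21-fold difference. For miR-182 it was 4.41 and 8.21, given without a fold because none of its probes passed detection on the tumour-labelled array. The sum for miR-182 includes its 14-base probe at -1.17 on the tumour-labelled array and 1.29 on the normal-labelled array, in the software's total probe signal, and its 15-base probe at -1.25 and -0.62. The values for miR-182 in the value table therefore include probes with 0 spots well above background. Together the 3 members gave 0.137% of the summed total gene signal on the tumour-labelled array and 0.304% on the normal-labelled array, shares that depend on probe brightness and on every other miRNA of the array.

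**Figure D2:**
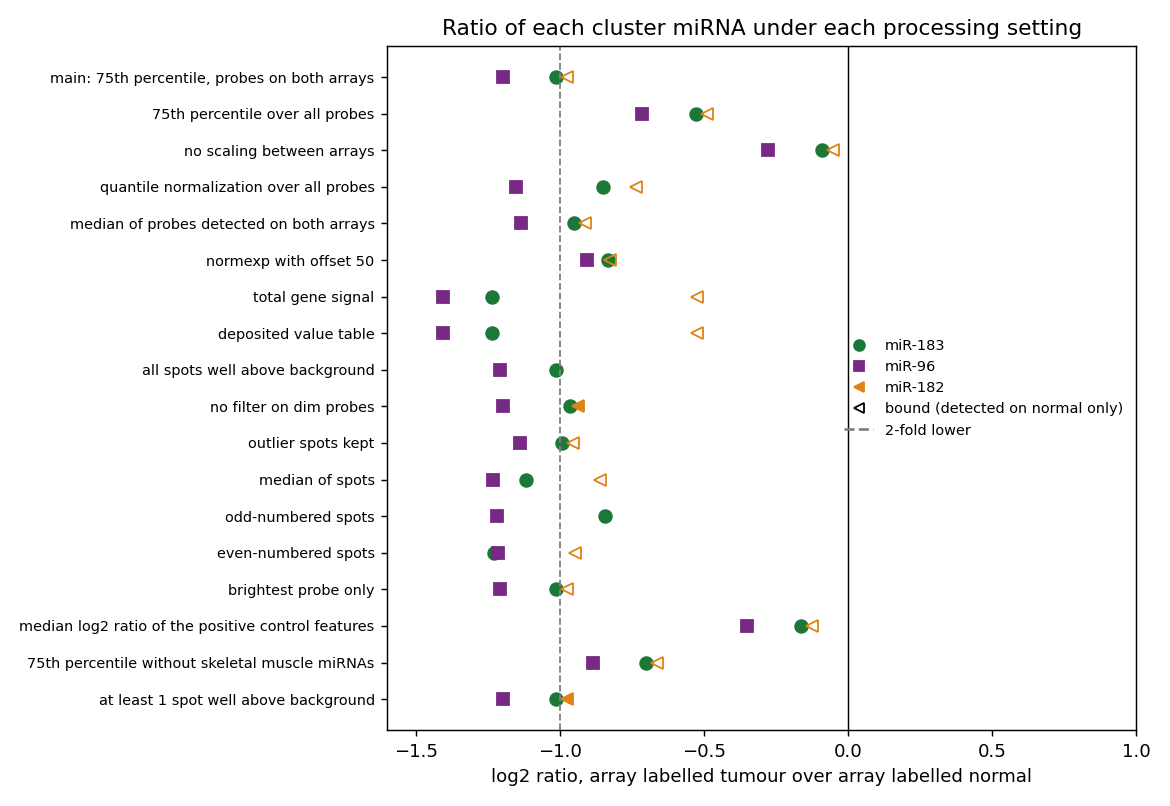
Log2 ratio of miR-183 (circles), miR-96 (squares) and miR-182 (triangles) on the horizontal axis, labelled tumour over labelled normal, under each processing setting on the vertical axis; open triangles are bounds and the dashed line is 2-fold lower. The values lie below 0 in every setting shown, from -1.41 for miR-96 with the total gene signal to -0.054 for the bound of miR-182 without scaling. A bound is shown only where it is below 0.

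Scaling by a common factor moves all miRNAs of an array alike, so the place of the members among the others does not depend on it. miR-96 had the 13th lowest and miR-183 the 19th lowest of the 85 log2 ratios. They lay 0.74 and 0.55 below the median of the 85 miRNAs, which was -0.46 after scaling and 0.46 without it. Both the place and the distance moved with other choices. miR-183 ran from the 12th lowest of 83 with even-numbered spots to the 23rd lowest of 85 with odd-numbered spots. With normexp background correction miR-96 lay 0.37 and miR-183 0.30 below the median. With no filter on dim probes, signals under the dimmest detected probe were raised to it, including the 18-base probe of miR-183. The median over all 350 miRNAs, -0.92, was then only the ratio of the dimmest detected probes of the arrays. miR-96 and miR-183 lay 0.28 and 0.048 below that median, which are not distances from a measured centre. The widest distances were 0.82 for miR-96, with the brightest probe only, and 0.74 for miR-183, with even-numbered spots. This is a description of 2 arrays, with no test.

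Other epithelial miRNAs give the nearest comparison in cell type. The list held miR-200a, miR-200b, miR-200c, miR-141 and miR-429, which hold cells in an epithelial state by repressing ZEB factors, and miR-203 and miR-205 of stratified epithelium. All 7 were measured on both arrays. After scaling all 7 were below 0, 2 were at least 2-fold lower and the median log2 ratio was -0.61; without scaling 2 were below 0, 0 were at least 2-fold lower and the median was 0.31. Over all 85 miRNAs, 53 were below 0 after scaling and 20 without it, and the 22.4% given above were at least 2-fold lower after scaling. The lowest were miR-141 at -1.26, miR-205 at -1.04 and miR-200c at -0.90, all after scaling. miR-96 lay 0.59 and miR-183 0.40 below the median of this list, inside its range of -1.26 to -0.24. With normexp these distances were 0.26 and 0.19, the smallest of the 18 settings, and the widest were 0.60 and 0.59.

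Markers of other cell types also moved between the arrays. Of the 7 skeletal muscle miRNAs 5 were measured, all 5 with scaled log2 ratios above 0, from 0.91 to 3.72 with a median of 2.53; the highest were miR-1 at 3.72, miR-133b at 2.66 and miR-133a at 2.53. The other 2, miR-208 and miR-499, were detected on neither array. From these files an exchange of the 2 labels, which would turn every direction given here, and a difference between the tissues cannot be told apart. Of 5 leukocyte miRNAs on the array, out of 6 listed, 4 were measured, with scaled log2 ratios of -2.41 for miR-223 of myeloid cells, -1.82 for miR-142-3p of blood cells, 1.43 for miR-150 of lymphocytes and -1.04 for miR-146a. Without the muscle miRNAs in the percentile, miR-183 was at -0.70 and miR-96 at -0.89, both under 2-fold; any further part of the muscle difference in these ratios was not tested. Of 7 miRNAs of nerve and sensory organs, the tissues where the miR-183 cluster is best known, 0 were measured on both arrays. Detection on the tumour-labelled array alone held for 2, miR-128 and miR-204, named after their values were seen, and 5 were found on neither; over the whole array these numbers were 19 and 243 of 350.

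**Figure D3:**
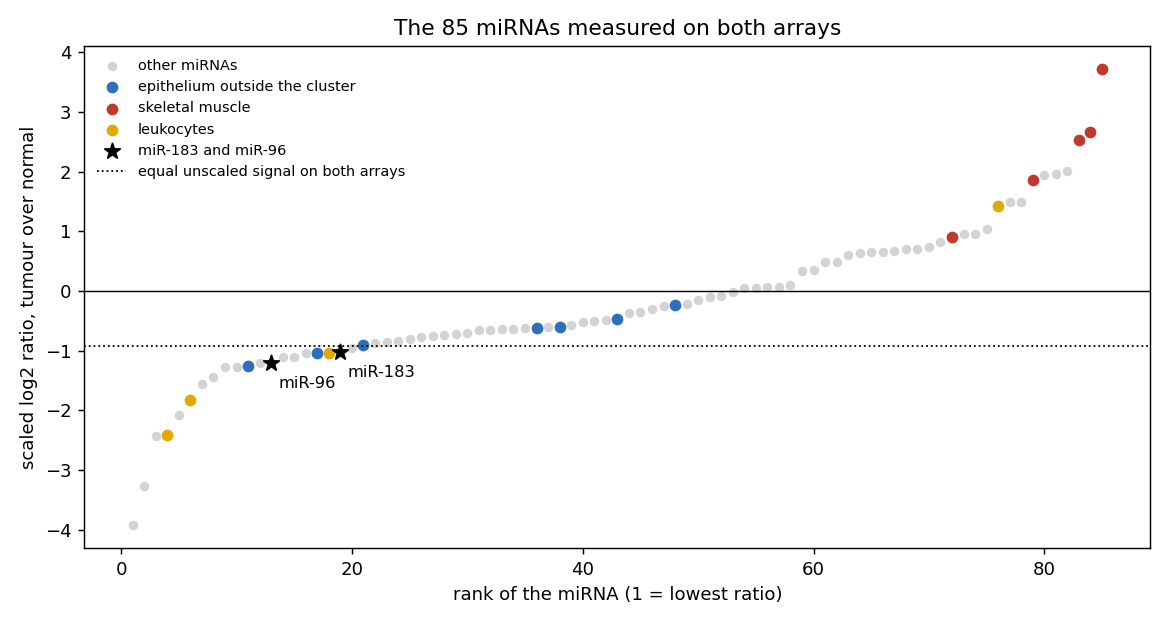
Scaled log2 ratio (vertical axis) of the 85 miRNAs measured on both arrays, ordered from lowest to highest (horizontal axis), with miR-183 and miR-96 as stars and the fixed lists of epithelial, skeletal muscle and leukocyte miRNAs in colour; the dotted line at -0.92 is where the unscaled signals of both arrays are equal. miR-183 and miR-96 lie just below the dotted line among the lower epithelial miRNAs, and the muscle miRNAs lie above 0.

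By closeness of the scaled log2 ratio over these 2 arrays, the miRNAs most like miR-183 were miR-146a (a difference of 0.024), miR-205 (0.025) and miR-15b (0.032). Those most like miR-96 were miR-99b (0.014), miR-141 (0.058) and miR-494 (0.066). With 2 arrays this likeness is 1 number per miRNA, so many miRNAs lie close by.

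miRNAs of 1 transcript are made together, but whether that bears on the ratios here was not tested. miR-183 and miR-96 had similar ratios, with miR-183 higher by 0.19 (spot SE 0.11). That gap was 0.37 with odd-numbered spots and -0.012 with even-numbered ones, and miR-183 was the higher of the pair in 17 of 18 settings. A common scaling factor cannot change the gap, and the deposited value table repeats the total gene signal, so these settings are not separate checks. Beside this stand 18 other pairs of measured miRNAs whose genes are next to each other on 1 strand within 10 kb in RefSeq, for 76 of the 85 miRNAs that could be placed. Over all 19 pairs the median difference was 0.30, with a range of 0.0046 to 1.75, and 5 pairs differed by less than miR-183 and miR-96. Over all 3570 pairs of measured miRNAs the median difference was 1.096, and 10.4% differed by no more than these members. The detected probes of these members had means only 1.41 to 2.09 times that of the dimmest detected probe of their array. The pairs they are set beside were not matched for brightness. Some neighbouring miRNAs, such as let-7a and let-7f, also have probes of similar sequence, and pairs that share a miRNA are not independent. A miRNA that matched more than 1 gene was paired through any of them, so its ratio need not come from 1 transcript. miR-182, with no ratio of its own, could not be placed here.

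**Figure D4:**
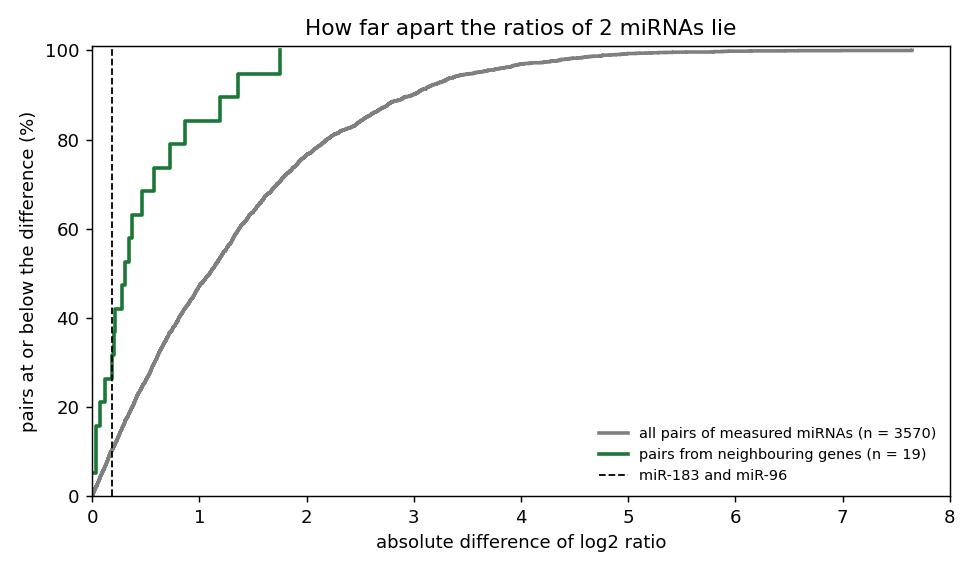
Percentage of pairs (vertical axis) whose log2 ratios differ by at most the value on the horizontal axis, for the 19 pairs from neighbouring genes (green) and all 3570 pairs of measured miRNAs (grey); the dashed line marks miR-183 and miR-96 at 0.19. The green line rises to 1.75, and the dashed line crosses it below its median of 0.30.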

How the data were processed

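RNA labelled with Cy3 was measured on 1-colour arrays, 1 per group. Per the file headers, the deposited intensity of a spot comes from Feature Extraction 10.5.1.1: its background was subtracted, spatial trends were removed, and arrays were not normalized to each other. The kit in the labels' protocols amplifies messenger RNA; the labelling of miRNA was not described there.

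Unmarked spots of a probe were averaged on the linear scale. Signals were divided by the array's 75th percentile among probes that passed detection on both arrays, which was 525.6 for tumour and 277.5 for normal, raised to the dimmest detected probe where below it, and log2 transformed. A miRNA's ratio is the mean over probes detected on both arrays. Calls are 2-fold or more. Of 938 probes, 809 matched a RefSeq mature miRNA exactly. Spots marked as outliers numbered 248 and 336 of 7000, and 0 were saturated. Precision is limited by having 1 array per group. The deposited value table holds the software's total gene signal as linear intensity, values below 1 set to 1, for all 395 features on both arrays; the medians of its columns, 1.70 and 1.32, show no centring. Normexp used limma 3.58.1; other steps used Python 3.11.15. The steps were checked on simulated data, except the scaling between arrays, as any shift common to all miRNAs was removed before the check.

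The members and lists were chosen with earlier results of these data known. Named miRNAs are the 3 members, the 3 nearest in ratio to each measured member, and up to 3 of each list with the largest absolute ratio; other names in a list were given to say what it holds. In all 14 alternatives were planned and 3 added after seeing the data.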

Additional observations from a re-analysis of the deposited data

How the results depend on the processing

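Across 17 alternatives miR-183 and miR-96 stayed below 0 in all. miR-182 was below 0 in the 15 that gave it a value, but a bound was kept only where it was below 0. The sign of its bounds therefore shows no stability. miR-182 had no value with all spots required to be well above background or with odd-numbered spots, where it was detected on neither array. Counting the main setting, miR-183 was at least 2-fold lower in 8 of 18 settings (-1.24 to -0.092) and miR-96 in 13 (-1.41 to -0.28). These settings are not all distinct, as the deposited value table repeats the total gene signal. For miR-183, with 1 detected probe, requiring all spots or at least 1 spot, or taking the brightest probe, repeats the main value of -1.01. With odd-numbered spots miR-183 was at -0.84, with even-numbered ones at -1.23, and miR-96 at -1.22 with either. In log2 ratio, for miR-183, miR-96 and the bound of miR-182 in turn, the 75th percentile over all probes gave -0.53, -0.72 and -0.49, no scaling gave -0.092, -0.28 and -0.054, and the positive control features, added later, gave -0.16, -0.35 and -0.13. Leaving the muscle miRNAs out of the percentile, also added later, gave -0.70 for miR-183 and -0.89 for miR-96, and normexp with its offset of 50 gave -0.91 for miR-96. These were the values that moved by more than the spot SD. miRNAs at least 2-fold lower and higher numbered 19 and 11, against 7 and 23 with all probes in the percentile, 5 and 28 without scaling, 8 and 3 with normexp, 5 and 27 on the control features and 8 and 18 without muscle miRNAs; by construction a change of scale shifts all ratios alike, and the cause of the change with normexp was not tested. On the tumour array 2 of the 3 members were detected, or 3 with at least 1 spot well above background (added later), where 99 miRNAs had a ratio. With no filter 3 were, by definition, as all 350 miRNAs then count as detected. On the normal array 3 were detected, or 2 with all spots required or with odd-numbered spots, where 78 and 85 miRNAs had a ratio. A ratio needs detection on both arrays. For these rules the share of all 350 miRNAs detected on each array was not counted, so the member counts have no background beside them. Signals close to background limit all 3 members. No paired analysis was possible because each group has 1 array.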
